A study of Homo sapiens with 12 samples.

Results

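Cells of HCT116, a human colon carcinoma line of epithelial origin, were compared after transfection with siTotal1, one of a pair of siRNAs against all transcripts of NFYA, and after each of 2 control transfections. The comparison used 6 of the 12 libraries of the series, chosen by their titles: siTotal1 (2 libraries, siRNA at 62.5 nM), siControl (2 libraries, a non-targeting siRNA at 62.5 nM) and mock (2 libraries, transfection reagent with no siRNA). All cultures were of this 1 line, were transfected 24 h after seeding with Lipofectamine 2000 and were harvested at 72 h; siTotal2, the other siRNA against all NFYA transcripts (2 libraries), was used where the difference between the siRNAs was tested. Of 63677 genes listed, 17730 had enough reads to be tested. A gene was counted as held when siTotal1 differed from siControl and from mock in the same direction, each at an adjusted p under 0.05 in edgeR's quasi-likelihood test with Benjamini-Hochberg adjustment. Levels are CPM (read counts scaled to a common library size) after TMM scaling, and differences are log2 fold changes with their standard error (SE).

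NF-Y is a transcription factor made of the products of NFYA, NFYB and NFYC. NFYB and NFYC pair through histone-fold domains, and NFYA joins the pair and reads the CCAAT box, a short promoter element common in genes of the cell cycle, of lipid synthesis and of protein folding. An siRNA guides the Argonaute complex to a fully matched transcript, and its seed (bases 2 to 8 of the antisense strand) can also repress transcripts that match those bases alone, mostly in their 3′ untranslated region (UTR).

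The siRNA sequences are shown so that their match in NFYA and the words that pair with their seeds can be followed. Whether the seed had an effect was not tested. Sense strands are printed 5′ to 3′, with the stretch that a transcript shares with the seed match in capitals.
first siTotal sequence: acuagaggcagAAGGGAAa
second siTotal sequence: uggugaaggugGACGAUUu
The first matched all 19 bases in exon 8 of NFYA-201, in coding sequence at chr6:41093049-41093067 on the plus strand of GRCh38, and the second matched exon 9 of the same transcript, also in coding sequence, at chr6:41094443-41094461. Each matched 2 NFYA transcripts and no other gene. The labels do not say which of them is siTotal1, so both were followed below.

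The 6 libraries held between 36068065 and 49746637 reads in genes. The root mean square log2 difference between the 2 siTotal1 libraries was 0.166, against 0.137 for mock and 0.126 for siControl. Between groups it was 0.375 for siTotal1 and siControl, 0.336 for siTotal1 and mock, and 0.347 for mock and siControl, so the distance between the controls lay between those of siTotal1 from each. The epithelial identity of the line was present in all 6 libraries (EPCAM at 164 to 279 CPM, KRT8 at 1475 to 1828 CPM). Markers of blood cells summed to 0.696 to 1.05 CPM and those of neural cells to 17.2 to 20.3 CPM. Markers of fibroblasts summed to 46.8 CPM in the first mock library and to 26.4 to 35.9 CPM in the other 5. Fibroblast matrix genes such as COL1A2 and DCN set the first mock library apart. COL1A2 was at 3.13 CPM there, 0 in the second mock library, 0 in both siTotal1 libraries and at most 0.0788 in siControl, and DCN was at 2.1 CPM in the first mock library and at most 0.028 in the other 5. Without that library 3197 genes, instead of 3935, passed the test against each control in 1 direction. List counts that moved by over 1.5 times without it are given with and without it below. For the rises of intestinal differentiation genes, the gene that was lost is named instead. The other list counts moved by 1 gene at most.

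The targeted gene fell by a small amount in siTotal1, and both of its partner subunits rose. NFYA (chromosome 6, 41072945 to 41099976, GRCh38) was at 47.9 and 46.8 CPM in the siTotal1 libraries, 57.4 and 57.5 in siControl, and 55.2 and 59.1 in mock. Both siTotal1 values lay below all 4 control values. The log2 difference was -0.28 (SE 0.05, adjusted p = 1.7e-05) against siControl and -0.27 (SE 0.05, adjusted p = 2.6e-05) against mock. OARD1, which overlaps NFYA on the opposite strand, was at 26.8 and 26.6 CPM in siTotal1 and 23.8 to 27.5 in the controls, with differences of -0.02 and 0.07 that did not pass the test. The sources used here give no strand setting, so reads of the overlap cannot be told apart.

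NFYB was at 59.3 and 57.5 CPM in siTotal1, 31.5 and 33.6 in siControl and 33.6 and 33.8 in mock. It rose by 0.84 (SE 0.06, adjusted p = 8.9e-15) against siControl and by 0.79 (SE 0.06, adjusted p = 4.6e-14) against mock. NFYC was at 101 and 95.9 CPM in siTotal1, 56.0 and 55.0 in siControl and 57.1 and 58.9 in mock. Its rise was 0.82 (SE 0.05, adjusted p = 2.0e-16) and 0.76 (SE 0.05, adjusted p = 1.9e-15). The groups did not overlap for either gene, and mock and siControl did not pass the test against each other for any of the 3 subunits. In siTotal2, NFYA was at 46.0 and 46.2 CPM, NFYB at 52.6 and 52.8, and NFYC at 86.1 and 83.3. Between the 2 siRNAs, NFYA differed by 0.04 (SE 0.05, adjusted p = 0.58), which did not pass the test, while NFYB was higher in siTotal1 by 0.15 (SE 0.06, adjusted p = 0.027) and NFYC by 0.21 (SE 0.05, adjusted p = 2.9e-04).

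**Figure D1:**
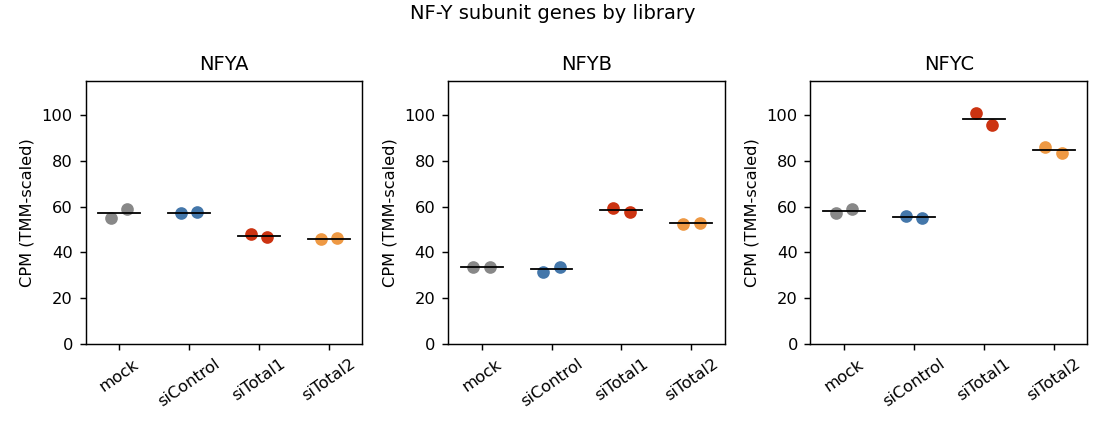
Level of each NF-Y subunit gene (CPM, linear axis from 0) in the 2 libraries (points) of mock, siControl, siTotal1 and siTotal2, with the group mean as a bar. NFYA sits at 47.9 and 46.8 in siTotal1, under all controls, and NFYB and NFYC sit above all controls.

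Against siControl, 7698 genes differed in siTotal1 (43.4% of those tested), 4068 higher (22.9%) and 3630 lower (20.5%). Against mock 7250 differed (40.9%), 3927 higher (22.1%) and 3323 lower (18.7%). Against the mean of the 2 control groups 7502 differed (42.3%), 4178 higher (23.6%) and 3324 lower (18.7%). The controls differed from each other in 7065 genes (39.8%), 3464 higher in mock (19.5%) and 3601 lower (20.3%). Requiring a gene to hold against each control left 3935 genes (22.2%), of which 2240 were higher (12.6%) and 1695 lower (9.56%). For 2235 (12.6%) and 1689 (9.53%) of these, both siTotal1 libraries lay outside all 4 control libraries, which was so in 3704 (20.9%) and 3272 (18.5%) of all tested genes. Among the held genes, mock and siControl did not pass the test against each other in 1302 of those that rose and 1095 of those that fell.

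Most held differences were small. The median was 0.36 against siControl and 0.33 against mock for the genes that rose, and -0.43 and -0.38 for those that fell. At least 1.5-fold against each control, 319 genes rose (1.8%) and 382 fell (2.15%), and at least 2-fold, 114 rose (0.643%) and 109 fell (0.615%). Rises outnumbered falls among all held genes, and falls outnumbered rises at 1.5-fold. In bulk RNA, a change in how many cells of one state a culture holds and a change per cell cannot be told apart.

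**Figure D2:**
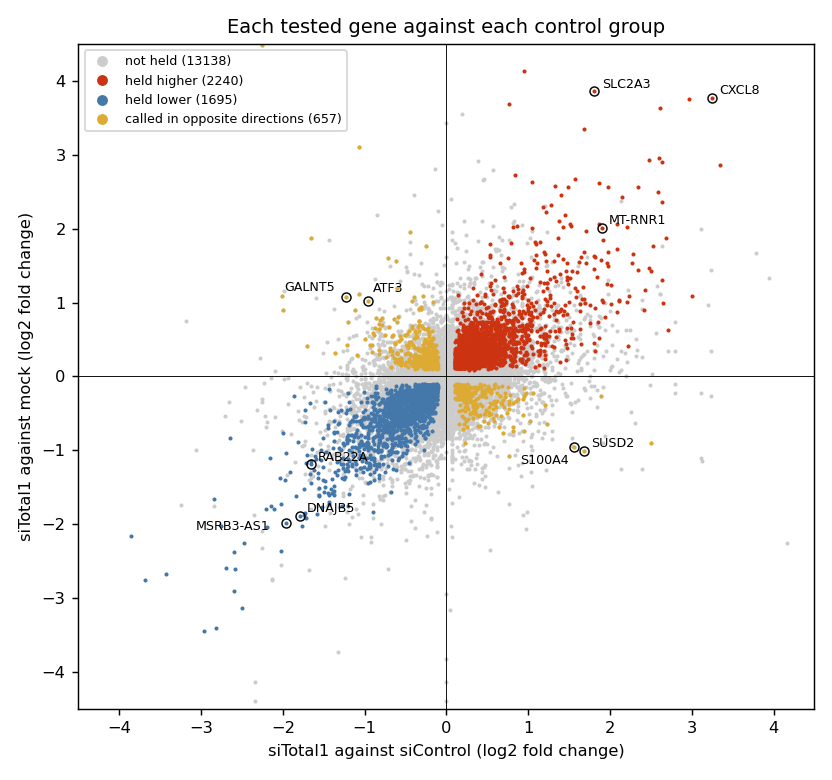
Log2 fold change of siTotal1 against siControl (horizontal) and against mock (vertical) for each tested gene, with held genes in red and blue, genes called in opposite directions in yellow and named genes circled. The 2 axes share the siTotal1 libraries, so the slope of the cloud carries no test, and 18 genes lie outside the axes.

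Genes with a symbol and a mean log2 CPM over 1 across all 12 libraries of the series were ranked. The 12 rises that were largest against both controls comprised 9 nuclear genes and 3 mitochondrial RNAs, with CXCL8, MT-RNR1 and SLC2A3 at the top. CXCL8, a neutrophil-attracting chemokine, was at 11.2 and 9.83 CPM in siTotal1, 1.02 and 1.19 in siControl and 0.813 and 0.722 in mock. It rose by 3.25 (SE 0.16, adjusted p = 2.0e-18) and 3.77 (SE 0.17, adjusted p = 1.5e-19). SLC2A3, a high-affinity glucose transporter, was at 121 and 104 CPM in siTotal1, 29.2 and 35 in siControl and 6.41 and 9.34 in mock. Its rise was 1.81 (SE 0.14, adjusted p = 3.3e-05) against siControl and 3.86 (SE 0.17, adjusted p = 1.2e-06) against mock, and the controls themselves stood apart, with a difference of -2.04 for mock against siControl.

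CCN2, a matricellular protein whose gene responds to TGF-beta and YAP, was at 26.4 and 23.4 CPM in siTotal1, 8.28 and 9.21 in siControl and 6.11 and 5.8 in mock (1.51, SE 0.09, and 2.06, SE 0.10). SMAD7, the inhibitory SMAD that TGF-beta induces, was at 10.6 and 11.3 CPM against 3.57 to 4.89 in the 4 control libraries (1.48, SE 0.13, and 1.34, SE 0.12). TGM2, a protein crosslinking enzyme, was at 56.1 and 52.2 CPM against 21.3 to 22.2 (1.31 and 1.34, SE 0.07 each). RASGRF1, an exchange factor for Ras, was at 10.0 and 8.85 CPM against 2.69 to 3.13 (1.80, SE 0.13, and 1.63, SE 0.12). VGF, a secreted neuropeptide precursor, was at 47.8 and 53.9 CPM against 17.4 to 20.9 (1.47 and 1.30, SE 0.10 each). GASK1B, which encodes a Golgi protein, rose by 1.46 and 1.42 (SE 0.17 each), and DNAH3, an axonemal dynein, by 1.34 (SE 0.24) and 1.29 (SE 0.23) from a level of 0.53 to 0.694 CPM in the controls. DNAH3 reached 1.5 and 1.54 CPM in siTotal1. It passed the floor on the mean level through libraries outside the comparison, such as siTotal2 at 9.09 and 9.9 CPM. The mean also includes the siTotal1 libraries, so a low gene that is high there can pass through them. CXCL8 (mean log2 CPM 1.49) and MT-TV (1.09) were near the floor, and both were higher in siTotal1 than in every control library. Their places in the ranking thus rest in part on siTotal1 itself.

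The other 3 of the 12 largest rises were mitochondrial RNAs that code for no protein. MT-RNR1, the small ribosomal RNA of mitochondria, was at 2315 and 2226 CPM in siTotal1, 520 and 696 in siControl and 588 and 539 in mock (1.90, SE 0.13, and 2.01, SE 0.14). MT-TV, the valine transfer RNA that lies next to it, was at 3.19 and 2.72 CPM against 0.714 to 1.02 (1.71 and 1.97, SE 0.21 each). MT-TQ, a glutamine transfer RNA, was at 3.25 and 3.98 CPM against 0.963 to 1.37 (1.64, SE 0.20, and 1.61, SE 0.19). The 13 mitochondrial protein-coding genes had medians of -0.15 and -0.02, and 1 was held, MT-ND6, the single one on the light strand, at 142 and 165 CPM against 61.1 to 102 (0.87 and 1.13, SE 0.21 each; adjusted p = 0.016 and 0.0054). The call of MT-ND6 against siControl was lost without the first siControl library (0.58, adjusted p = 0.06) and without the second siTotal1 library (0.75, adjusted p = 0.084). With only the groups compared in the fit, it passed against neither control (0.86, adjusted p = 0.098, and 1.13, adjusted p = 0.056). Abutting mitochondrial genes and their nuclear copies share reads, so the split between them is uncertain.

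The falls were led by MSRB3-AS1, an antisense RNA, at 0.722 and 1.23 CPM in siTotal1, 3.52 and 4.10 in siControl and 4.40 and 3.25 in mock (-1.96 and -1.98, SE 0.21 each). Without a known strand setting, its reads cannot be told apart from those of its overlapping partner. DNAJB5, a co-chaperone of the HSP40 family, was at 2.58 and 2.63 CPM in siTotal1, 9.43 and 8.62 in siControl and 9.56 and 9.85 in mock. It fell by 1.79 against siControl (SE 0.12, adjusted p = 1.4e-14) and by 1.89 against mock (SE 0.12, adjusted p = 2.6e-15). RHOT1, a mitochondrial GTPase of organelle transport, was at 20.6 and 24.2 CPM against 53.2 to 56.0 in the controls (-1.32 and -1.27, SE 0.06 each). TOR3A, a torsin ATPase of the endoplasmic reticulum, was at 29.7 and 27.8 CPM against 65.3 to 67.7 (-1.2 and -1.21, SE 0.05 each). RAB22A, a GTPase of endosomes, was at 17.0 and 16.8 CPM, 52.8 and 54.0 in siControl and 36.5 and 40.8 in mock (-1.66 and -1.19, SE 0.06 each).

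CYP4F11, a fatty-acid hydroxylase, was at 8.41 and 9.86 CPM against 23.4 to 27.2 (-1.41 and -1.53, SE 0.08 each). HINT2, a mitochondrial nucleotide hydrolase, was at 4.58 and 5.80 CPM against 12.1 to 13.9 (-1.25, SE 0.11, and -1.39, SE 0.10). MALL, a membrane-raft protein, was at 10.8 and 13.5 CPM against 27.0 to 32.6 (-1.24 and -1.36, SE 0.09 each). The remaining falls were C14orf132 (-1.57 and -1.31), GRAMD2A (-1.62 and -1.27), RHOBTB1 (-1.26 and -1.24), and DDIT4. DDIT4, an inhibitor of mTORC1 that stress induces, varied among the controls: 50.4 and 84.4 CPM in siControl and 83.7 and 113 in mock, against 27.1 and 31.5 in siTotal1. Its difference of -1.2 from siControl (SE 0.28, adjusted p = 0.013) lost its call with only the groups compared in the fit (-1.21, adjusted p = 0.084). The call was also lost without the first siTotal1 library (-1.12).

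**Figure D3:**
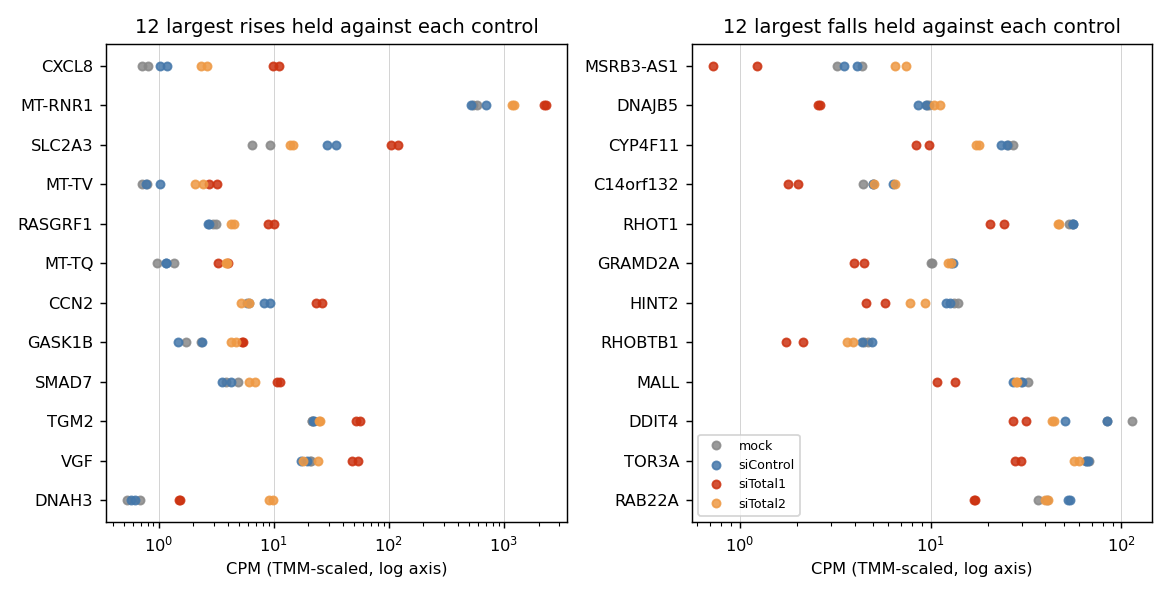
CPM (log axis) of the 12 largest rises (left) and 12 largest falls (right) held against each control, with 1 point per library of mock, siControl, siTotal1 and siTotal2. By the choice of genes, the siTotal1 points lie outside all mock and siControl points; siTotal2, which the choice did not use, lies with the controls for genes such as DNAJB5 (11.2 and 10.4 CPM) and with siTotal1 for MT-TQ (3.91 and 3.85 CPM).

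The 7-base word AAGGGAA, which pairs with the seed of the first siTotal sequence, was found in the 3′ UTR of 10 of the 11 largest falls that have one; DDIT4 lacked it, and MSRB3-AS1 has no 3′ UTR. It was found in 1 of 8 of the largest rises, RASGRF1. Over the 11271 genes with a 3′ UTR of at least 50 bases and a mean log2 CPM over 1, 2326 (20.6%) held it. Sites of 5 of these genes are printed as 25 bases of the transcript strand on GRCh38, with the word in capitals, to show the match beside the genes that fell.
DNAJB5: gagaggataagAAGGGAAagttcac
RHOT1: tattagccatgAAGGGAAtatcttt
HINT2: gcttggatggaAAGGGAAaaatgga
TOR3A: gcctgaggctgAAGGGAAaagtaca
CYP4F11: agctcagaacaAAGGGAAaggggtg
They lie at chr9:34997794-34997818 (plus strand), chr17:32208366-32208390 (plus), chr9:35812993-35813017 (minus), chr1:179095814-179095838 (plus) and chr19:15913302-15913326 (minus). RAB22A held 3 copies, and DNAJB5 and RHOBTB1 held 2 each. Of the 2326 genes with the word, 21.9% were held lower and 14.3% held higher, against 10.3% and 18.4% of the 8945 genes without it. Falls of at least 1.5-fold were found in 4.2% and 1.1%. The median was -0.06 against siControl and -0.02 against mock with the word, and 0.03 and 0.04 without it.

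A longer UTR has more room for a 7-base word by chance, so the genes were divided by UTR length. Among genes with a UTR of at least 50 and under 500 bases, 43.9% of the 66 with the word were held lower, against 11.8% of the 2142 without. The shares were 30.3% and 10.2% from 500 bases, 21.9% and 9.4% from 1500 bases, and 18% and 9.1% from 3000 bases on. In each of the 4 bands the share was higher with the word. Genes with 2 or more copies (527) were held lower in 26.6% of cases. Of the 109 genes held lower by at least 2-fold, 21 had a 3′ UTR of at least 50 bases and a mean log2 CPM over 1. Among these 21, 15 carried the word (71.4%). Of the 114 held higher by at least 2-fold, 22 met the same conditions, and 7 of these carried it (31.8%). The share was 20.6% over all genes that met them. At 1.5-fold, 191 of the 382 genes held lower met the conditions and 97 of them carried the word (50.8%). Of the 319 held higher, 141 met them and 24 carried it (17.0%). Of the list members named below, 12 of the 46 that fell carried it (26.1%) and 9 of the 43 that rose (20.9%). Below, the word is marked for some of these genes only. It is also carried by FOXM1, BIRC3 and AGO2, which rose, and by CENPA, UNG and E2F1, which fell. Leaving out each of the 6 libraries in turn gave 18.7% to 22.4% held lower with the word and 8.4% to 10.8% without it.

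In siTotal2 the same 2326 genes had a median of 0.00 against the mean of the controls, and the genes without the word had -0.01. The word for the second siTotal sequence, GACGATT, was rarer (176 genes), and 15.9% of those were held lower in siTotal1 against 12.6% of the genes without it, and 22.7% were held higher against 17.4%. Their median in siTotal2 was -0.10 against the mean of the controls, and -0.01 without it. All of these shares are descriptions over genes, which are not replicates, and a word in a UTR is a match of letters and not a measured site of binding.

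**Figure D4:**
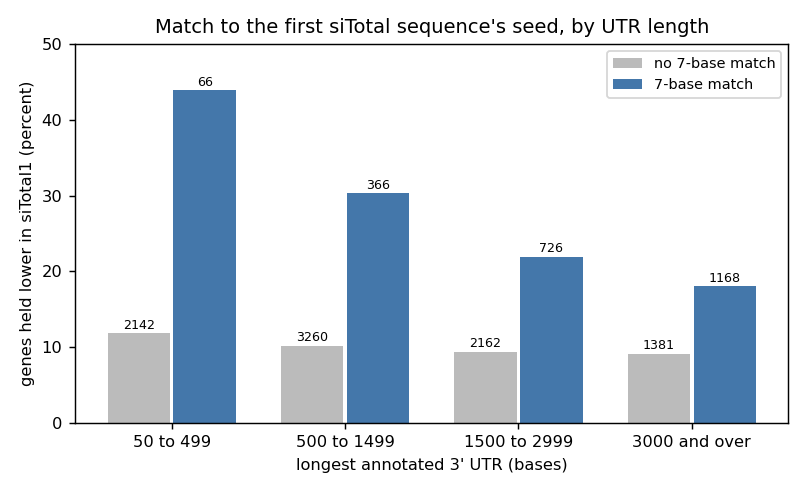
Share of genes held lower in siTotal1 (percent, axis from 0) with and without the 7-base word of the first siTotal sequence in the longest annotated 3′ UTR, in 4 bands of UTR length; the number over each bar is the number of genes. With the word the share goes from 43.9% in the shortest UTRs to 18% in the longest, and without it from 11.8% to 9.1%.

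The CCAAT box, the element that NF-Y reads, was looked for as CCAAT or its reverse complement ATTGG, on both strands, between 250 bases before and 50 after the start of the gene (RefSeq, GRCh38.p14; 11501 of the tested genes had a promoter there). It was present in 36.6% of those promoters, in 41.5% of the 1295 held lower and in 34.5% of the 1734 held higher. At 1.5-fold the shares were 42.2% and 32.4%. Seen from the promoters, 12.8% of the genes with the box were held lower and 14.2% held higher, against 10.4% and 15.6% without it, with medians against siControl of -0.01 and 0.02. The word was found on both sides among the largest changes that had a promoter. The rises CCN2, GASK1B and VGF carried it, and CXCL8 and SMAD7 did not. The falls MSRB3-AS1, DNAJB5, CYP4F11, GRAMD2A, DDIT4 and TOR3A carried it, and RHOBTB1, MALL and RAB22A did not. NFYC, which rose, carried it as well. For CYP4F11, TOR3A and NFYC, 25 bases of the promoter are printed with the word in capitals.
CYP4F11: gtccatggggATTGGctcgaccagc
TOR3A: cacagcaacaCCAATcccgggttca
NFYC: tcgccccttcCCAATtctcgcgaga
These lie at chr19:15934912-15934936, chr1:179082007-179082031 and chr1:40691596-40691620, and the word begins 59, 53 and 98 bases before the start. A match is a description and says nothing about whether the factor was bound.

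The gene lists are given with the median difference against siControl and then against mock, which were 0.01 and 0.00 over all genes tested. Among all genes tested, 12.6% were held higher, 9.56% were held lower and 3.71% were called in opposite directions, and the count of each list stands beside these shares. Of 40 genes of G2/M and mitosis, 6 were held lower and 1 higher (medians 0.04 and -0.09), beside 9.56% and 12.6% of all genes. CCAAT was present in 25 of the 33 promoters found for this list and in 18 of 33 for G1/S and DNA replication. CENPA, the centromeric histone, was at 16.6 and 16.8 CPM in siTotal1 against 24.4 to 27.8 in the controls (-0.57, SE 0.08, and -0.67, SE 0.07). AURKB, the kinase of chromosome segregation, fell by 0.25 and 0.27 (SE 0.05 each), and CENPE, a mitotic kinesin, by 0.27 and 0.26 (SE 0.05 each). FOXM1, a transcription factor of the G2/M programme, was the one that rose, at 223 and 215 CPM against 150 to 180 (0.53 and 0.28, SE 0.04 each). Without the first siTotal1 library 11 of the genes were held lower. Of 38 genes of G1/S and DNA replication, 5 were held lower and 0 higher (medians 0.05 and -0.10). UNG, the uracil-DNA glycosylase, was at 77.7 and 72.8 CPM, 116 and 113 in siControl and 152 and 155 in mock (-0.61 and -1.03, SE 0.04 each). E2F1 fell by 0.37 against each control (SE 0.06) and RRM2, a subunit of ribonucleotide reductase, by 0.42 and 0.25 (SE 0.04). The G1/S count was 3 without the first mock, the first siControl or the second siTotal1 library and 9 without the first siTotal1 library.

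Targets of p53 were held higher in 12 of 30 cases (40%, beside 12.6% of all genes) and lower in 2 (medians 0.27 and 0.32). HCT116 cells carry a functional p53. SESN1, a stress-induced inhibitor of mTORC1, was at 28.8 and 29.6 CPM in siTotal1, 12.2 and 14.1 in siControl and 17.7 and 19.9 in mock (1.15 and 0.64, SE 0.07 each). TIGAR, a fructose bisphosphatase, was at 42.0 and 39.3 CPM against 26.9 to 28.1 (0.57 and 0.56, SE 0.06). The RNA-binding protein gene ZMAT3 rose by 0.52 and 0.57 and the death receptor FAS by 0.45 and 0.57 (SE 0.07 each). The canonical target CDKN1A was at 355 and 353 CPM, 328 and 334 in siControl and 284 and 305 in mock, which passed the test against mock alone (0.26, adjusted p = 2.8e-06) and not against siControl (0.10, adjusted p = 0.056). MDM2 was lower than siControl (-0.16) and higher than mock (0.38), and BAX did not pass either test (0.00 and 0.03). The 12 genes stood at 11 to 13 on leaving out any 1 library, and 1 of them reached 1.5-fold.

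Genes of the mesenchymal state and the matrix were held higher in 10 of 28 cases and lower in 0, and 8 of the 10 reached 1.5-fold. ZEB1, a repressor of epithelial genes, was at 8.75 and 8.15 CPM in siTotal1, 2.08 and 1.83 in siControl and 3.97 and 4.26 in mock (2.11, SE 0.14, and 1.04, SE 0.12). FN1, fibronectin, was at 64.5 and 59.0 CPM against 29 to 32 (1.00 and 1.03, SE 0.06 each). THBS1, thrombospondin, was at 63.5 and 53.8 CPM, 26.1 and 28.2 in siControl and 21.5 and 18.9 in mock (1.11 and 1.53, SE 0.07). VIM, SNAI2, TIMP1, TIMP2, CALD1 and CCN2 were among the others. The list's median was 0.51 against siControl and -0.01 against mock. Several members were high in the first mock library: SPARC was at 1.84 CPM there and 0.217 in the second mock library, beside 0.528 and 0.448 in siTotal1. The count of 10 was the same without that library. None of the 5 tested fibroblast markers was held in either direction, and COL1A2 was at 0 in both siTotal1 libraries.

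Epithelial genes were held lower in 8 of 25 cases (32.0%) and higher in 2 (8.0%), with medians of -0.26 and -0.03. EPCAM, the epithelial adhesion molecule, was at 165 and 164 CPM in siTotal1, 279 and 278 in siControl and 243 and 261 in mock (-0.76 and -0.62, SE 0.04 each). CDH1, E-cadherin, was at 55.9 and 57.3 CPM, 94.8 and 99.7 in siControl and 76.7 and 84.0 in mock (-0.78 and -0.50, SE 0.05 each). GRHL2 and GRHL1, transcription factors of epithelial identity, fell by 0.90 and 0.41 (SE 0.06) and by 0.72 and 0.44 (SE 0.09). CLDN7, ESRP1, ELF3 and PKP3 were the other falls, and KRT18 was among the rises. The 2 control groups differed here too: CLDN4, OCLN, TJP1 and ST14 were below siControl and above mock in siTotal1. The 3′ UTR of EPCAM holds the word AAGGGAA and those of CDH1, GRHL1 and GRHL2 do not; among the mesenchymal genes that rose, ZEB1, FN1 and THBS1 hold it.

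Inflammatory and NF-kB genes were held higher in 4 of 20 cases and lower in 1 (medians -0.01 and 0.26), and 3 of the rises reached 1.5-fold. Besides CXCL8 these were BIRC3, an inhibitor of cell death that NF-kB induces, at 17.4 and 17.9 CPM against 7.99 and 8.84 in siControl and 6.25 and 5.63 in mock (1.07 and 1.57, SE 0.09), and ICAM1, an adhesion molecule, at 18.1 and 18.6 CPM against 7.54 to 10.3 (1.18, SE 0.09, and 0.87, SE 0.08). NFKBIA was the fourth, and CXCL16 fell by 0.32 and 0.22. Of 38 interferon-response genes, 5 were held higher (13.2%) and 4 lower (10.5%), near the 12.6% and 9.56% of all genes (medians -0.03 and 0.06). IFIT2 was at 3.14 and 3.03 CPM against 0.808 to 1.61 (1.92, SE 0.21, and 1.01, SE 0.18) and B2M, the light chain of class I molecules, rose by 0.47 and 0.37 (SE 0.04). PSMB9, a subunit of the immunoproteasome, was at 1.03 and 1.37 CPM against 2.08 to 3.20 (-0.83, SE 0.21, and -1.33, SE 0.19), and HLA-B, HLA-C and ISG15 were the other falls.

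Regulators of apoptosis were held lower in 7 of 26 cases (26.9%) and higher in 3 (11.5%, near the 12.6% of all genes), with medians of -0.13 and 0.03. BCL2L2, a survival protein of the BCL2 family, was at 18.7 and 21.5 CPM in siTotal1, 60.0 and 65.6 in siControl and 39.6 in each mock library (-1.64 and -0.98, SE 0.06 each), and its 3′ UTR holds the word AAGGGAA in 2 places. BCL2L1, which encodes BCL-XL, rose to 438 and 405 CPM from 287 to 298 in siControl and 239 to 245 in mock (0.53 and 0.80, SE 0.04). HRK, a death-promoting member of the family, fell by 1.32 and 0.65, and its call against mock was lost without the second siTotal1 library (-0.44, adjusted p = 0.054). Of 19 genes of ERK output and feedback, 5 were held higher and 1 lower (medians 0.07 and 0.13). JUN was at 50.2 and 45.8 CPM, 32.6 and 31.3 in siControl and 19.5 in each mock library (0.59 and 1.30, SE 0.06 each), MYC was at 431 and 406 CPM against 332 to 350 (0.31 and 0.28, SE 0.04), and SPRED2, an inhibitor of the pathway, rose by 0.27 and 0.46.

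Of 24 genes of cholesterol synthesis, 7 were held higher and 6 lower (medians -0.09 and 0.08). MVK, mevalonate kinase, was at 15.3 and 15.6 CPM, 36.3 and 34.9 in siControl and 28.6 and 27.4 in mock (-1.21 and -0.86, SE 0.07 each), and HSD17B7, a later enzyme, fell by 0.68 and 0.36 (SE 0.08). MSMO1, also an enzyme of the late steps, rose by 0.25 and 0.60 (SE 0.05 each). The rises were 4 without the first mock or the first siTotal1 library, and the falls 2 without the second mock library. Of 11 genes of fatty acid synthesis, 5 were held lower and 0 higher (medians -0.20 and -0.15): FASN, fatty acid synthase, was at 1360 and 1472 CPM against 1866 to 1888 (-0.41 and -0.40, SE 0.04), with smaller falls of ACSS2, FADS1, SCD and ELOVL6. The count was 3 without the second mock library, where SCD lost its call against mock (-0.07, adjusted p = 0.32).

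Genes of protein folding are given by compartment. In the cytosol, 7 of 19 heat shock chaperones were held lower and 2 higher (medians -0.10 and -0.16), with 1 held higher without the first mock, either siControl or the first siTotal1 library. BAG3, a co-chaperone of HSP70, was at 109 and 106 CPM against 146 to 166 (-0.61 and -0.46, SE 0.04 each), HSPA1B, an inducible HSP70 with a near-identical copy that can share its reads, fell by 0.51 and 0.29 (SE 0.04), and HSF1, the heat shock transcription factor, rose by 0.30 and 0.34 (SE 0.04). In the endoplasmic reticulum, 6 of 24 genes were held higher and 4 lower (medians 0.00 and 0.02). XBP1, a transcription factor of the unfolded protein response, was at 90.5 and 81.4 CPM against 63.3 to 71.4 (0.27 and 0.42, SE 0.05), and MANF, a secreted stress protein, fell by 0.28 and 0.25 (SE 0.05). The 6 rises were 3 without the first mock or second siControl library, 2 without the first siControl library and 1 without the first siTotal1 library. Of 29 genes that respond to ATF4 or amino acids, 3 were held higher (10.3%) and 4 lower (13.8%), with medians of -0.08 and -0.03. Among all genes these shares were 12.6% and 9.56%. Another 6 of the 29 differed from the 2 controls in opposite directions, as did 3.71% of all genes. The rises were 1 without the second siControl library and 0 without the first siTotal1 library. MTHFD2, a mitochondrial folate enzyme, was at 350 and 323 CPM against 407 to 427 (-0.28 and -0.32, SE 0.04), and ASNS, asparagine synthetase, fell by 0.21 and 0.17. DDIT3, which encodes CHOP, fell by 1.2 against siControl and 0.23 against mock. The second call was lost in DESeq2's Wald test (-0.24, adjusted p = 0.1). It was also lost in edgeR with no filter on low counts (-0.24, adjusted p = 0.051), and without the first mock (-0.20) or first siTotal1 library (-0.21).

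Among genes of energy metabolism, the glucose transporter SLC2A1 was at 341 and 344 CPM against 160 to 208 (0.96 and 0.86, SE 0.11 each) and was the single rise of 27 genes of glycolysis and hypoxia, of which 5 were held lower (medians -0.07 and -0.22). VEGFA, the endothelial growth factor that hypoxia induces, was at 30.9 and 34.9 CPM against 51.0 to 53.7 (-0.70 and -0.64, SE 0.06 each), and the enolase ENO2 fell by 0.32 and 0.42 (SE 0.06). Without the first siControl library 9 were held lower. Of 32 nuclear genes of the respiratory chain, 6 were held lower and 1 higher (medians 0.03 and -0.13). SDHD, a membrane anchor of complex II, was at 55.5 CPM in both siTotal1 libraries against 86.7 to 96.0 (-0.71 and -0.72, SE 0.05), and its 3′ UTR holds the word AAGGGAA. CYC1, cytochrome c1, fell by 0.28 and 0.43 (SE 0.04). The rises were 5 without the second siTotal1 library. PGD, an enzyme of the pentose phosphate pathway, rose by 0.56 and 0.21 (SE 0.04 each), while GSR, glutathione reductase, fell by 0.31 and 0.33 and FTL, ferritin light chain, by 0.24 and 0.40 (SE 0.04 each). Those 3 belong to 23 NRF2 genes, of which 3 were held higher (13.0%, near the 12.6% of all genes) and 4 lower (17.4%), with medians of -0.17 and -0.10.

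Cytosolic ribosomal protein genes were held higher in 15 of 38 cases and lower in 0, with medians of 0.10 and 0.13. RPL15 was at 1094 and 1036 CPM against 835 to 872 (0.30 and 0.32, SE 0.04), and RPL4 at 2733 and 2568 CPM against 2098 to 2243 (0.25 and 0.31, SE 0.04). None reached 1.5-fold. The count was 9 without the first mock library and 4 without the first siTotal1 library, and these genes have many pseudogene copies that can share reads. Lysosome and autophagy genes were held higher in 7 of 28 cases and lower in 2 (medians -0.04 and 0.16). LAMP1, the main lysosomal membrane protein, was at 132 and 136 CPM against 202 to 247 (-0.61 and -0.84, SE 0.04), and its 3′ UTR holds the word AAGGGAA. NPC2, a cholesterol carrier, rose by 0.85 (SE 0.06) and 0.46 (SE 0.05), and SQSTM1, an autophagy receptor, by 0.35 and 0.45 (SE 0.04).

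Of 19 Wnt and intestinal stem cell genes, 4 were held higher (21.1%) and 5 lower (26.3%), with medians of 0.08 and -0.13. PROM1, a stem cell surface protein, was at 24.3 and 25.7 CPM against 35.4 to 39.2 (-0.51 and -0.62, SE 0.06 each), NOTUM, a secreted Wnt inhibitor, fell by 0.48 (SE 0.11) and 1.00 (SE 0.10), and EPHB3, a receptor of crypt cells, by 0.57 and 0.66 (SE 0.11). Of 8 tested intestinal differentiation genes, CEACAM1 and HNF4A were held higher and DPP4 and CA2 lower (medians 0.01 and 0.04). HNF4A, a transcription factor of the gut epithelium, was at 13.2 and 12.9 CPM against 7.99 to 9.24 (0.63 and 0.59, SE 0.09). The call of DPP4 against siControl (-0.28, adjusted p = 0.027) was lost without any 1 of the 4 libraries compared (adjusted p 0.056 to 0.076) and in DESeq2 (0.065). CEACAM1 was low in all 6 libraries of the comparison, at 1.85 CPM at most. Its rise against mock was 1.0 with all libraries and 0.69 without the first mock library, where it was no longer held. Of 13 genes of the RNA interference machinery, which processes and uses the siRNA, AGO2, DGCR8 and TNRC6C were held higher (23.1%). AGO1 and PRKRA were held lower (15.4%), and the medians were 0.10 and 0.06. AGO2, the slicing Argonaute, was at 89.6 and 92.2 CPM against 69.3 to 76.2 (0.39 and 0.28, SE 0.05), and TNRC6C at 48.5 and 50.1 CPM against 31.8 to 36 (0.63 and 0.51, SE 0.06).

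**Figure D5:**
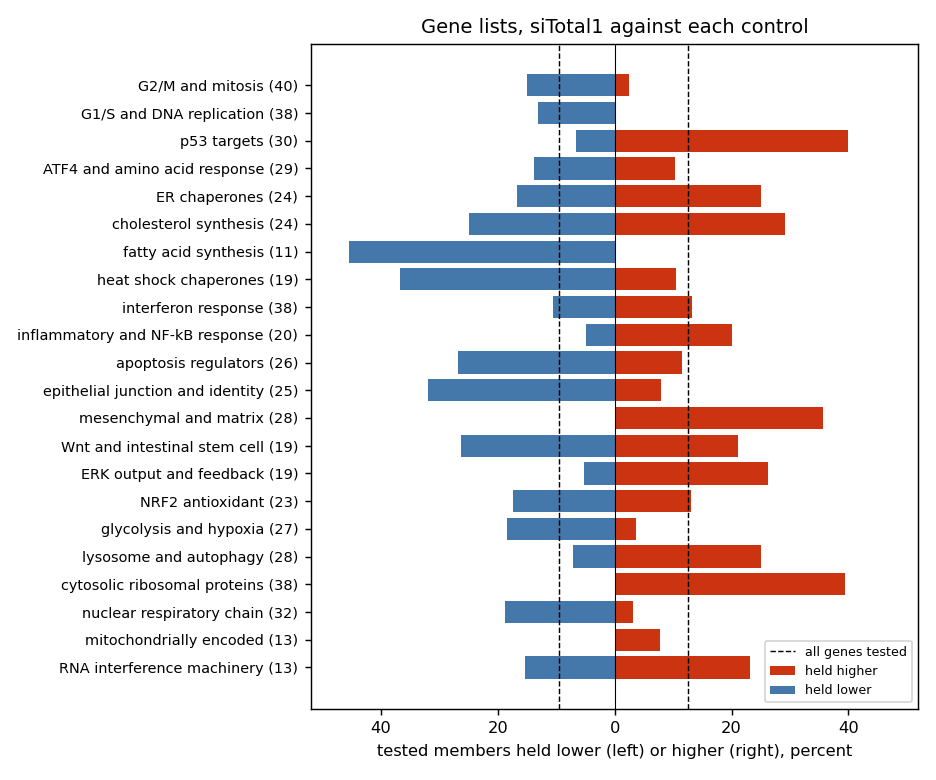
Percent of tested members of each gene list (number in brackets) held lower (left) or higher (right) in siTotal1 against each control, with the shares of all tested genes (9.56% lower, 12.6% higher) as dashed lines. Lists with at least 10 tested members are drawn; p53 targets reach 40% and ribosomal proteins 39.5% on the right, and fatty acid synthesis 45.5% on the left.

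The 2 siRNAs against all NFYA transcripts differed from each other in 7775 genes (43.9%), 4124 higher (23.3%) and 3651 lower (20.6%) in siTotal1. Of the 2240 genes held higher, 1668 (74.5%) were also above siTotal2, 40 (1.8%) were below it and 532 did not pass the test. Of the 1695 held lower, 1222 (72.1%) were also below siTotal2, 40 (2.4%) were above it and 433 did not pass. These counts share the siTotal1 libraries with the control comparisons. Of the 12 largest rises, 8 were above siTotal2 as well. SLC2A3 was at 13.9 and 14.7 CPM in siTotal2, under siControl, and CCN2 at 6.12 and 5.18 CPM, beside 6.11 and 5.8 in mock. MT-TV, MT-TQ and GASK1B did not pass the test against siTotal2, and DNAH3 was lower than in siTotal2, where it was at 9.09 and 9.90 CPM. Of the 12 largest falls, 11 were below siTotal2, DDIT4 being the exception (-0.59, SE 0.29, adjusted p = 0.15).

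A further 657 genes (3.71%) differed from both controls in opposite directions, 287 above siControl and below mock (1.62%) and 370 the reverse (2.09%). S100A4, a calcium-binding protein of motile cells, was at 53.4 and 58.4 CPM in siTotal1, 17.6 and 20.2 in siControl and 102 and 116 in mock (1.56, SE 0.07, and -0.96, SE 0.06). SUSD2, a membrane protein, and RAB26, a GTPase of secretory vesicles, had the same order (1.68 and -1.01; 0.76 and -1.08). In the other direction, ATF3, a stress-induced transcription factor, was at 38.9 and 35 CPM, 67.7 and 76.2 in siControl and 17.8 and 18.5 in mock (-0.96 and 1.02, SE 0.07 each). GALNT5, a glycosyltransferase, was at 62.2 and 50.9 CPM, 130 and 134 in siControl and 25.9 and 27.5 in mock (-1.23, SE 0.06, and 1.08, SE 0.07), and the pseudogene SEC14L1P1 followed it (-1.07 and 1.11). For all of these the siTotal1 libraries lay between the 2 control groups, and the sign of the difference depended on the control.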

How the data were processed

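Polyadenylated RNA of 6 groups of 2 libraries was sequenced from stranded libraries, per the labels' protocols. Duplicates are biological, per the series' design text. The p-values set each difference against a spread between duplicates that was pooled over all 6 groups, including groups outside the comparison. They do not rest on the duplicates of the compared groups alone. The submitters' processing notes name hg19, STAR 2.4.0f1 and featureCounts, without their order; the sources used here give no annotation release and no strand setting. The authors deposited raw read counts per Ensembl gene, with no normalization. The filter was filterByExpr with a minimum count of 10 and a minimum total of 15. The fit, in edgeR 4.0.16 under R 4.3.3, used TMM scaling and a robust quasi-likelihood model of all 6 groups, with 6 residual degrees of freedom and a biological coefficient of variation of 3.57%. Benjamini-Hochberg adjustment covered all 17730 genes tested; the scripts were tested on simulated data. No gene set test was run.

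Named genes had a mean log2 CPM over 1 across all 12 libraries, were held, and had both siTotal1 libraries outside all 4 control libraries. They were ranked by the smaller of the 2 control differences (12 each way), with up to 4 members of each of 27 gene lists. Added to them were the 5 largest each way against siTotal2 and the 3 largest each way among genes of opposite direction. A few others (such as CDKN1A, MDM2, BAX, SPARC and members given by name alone) were chosen after their values were seen. The comparison and lists were chosen with earlier results of these data known. Positions and 3′ UTRs come from GENCODE 29 on GRCh38, and promoters from RefSeq (GRCh38.p14), matched by identifier or symbol. Alternatives were DESeq2 1.42.0, its size factors, no filter, only the groups compared, a replicate block, a 1.5-fold floor, 1 pooled control group and each library left out. Replicates of each group differed by more than counting noise (chi-square per degree of freedom 6.57 to 9.85 in the 3 groups), so none was counted as a repeat of another. It was highest in siTotal1 (9.85), and was 4.64, 3.53 and 2.07 in the 3 groups outside the comparison. The pooled spread can thus be smaller than that of the compared groups, siTotal1 above all, which would make the adjusted p-values too small. Values of a few list members are left out of the text.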

Additional observations from a re-analysis of the deposited data

Results flagged for a closer look

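These 10 held genes are listed because siTotal1 and siTotal2, which target the same transcripts, differed in a direct test (edgeR's quasi-likelihood test, log2 scale). The 5 that were higher in siTotal1 were SLC2A3 (2.98), P3H2 (2.29), ARHGDIB (2.18), CCN2 (2.14) and CXCL8 (2.08). P3H2, a collagen prolyl hydroxylase, was at 17.0 and 14.7 CPM in siTotal1, 3.46 and 3.01 in siTotal2, 9.12 and 8.59 in siControl and 2.42 and 2.38 in mock. ARHGDIB was at 8.86 and 8.74 CPM in siTotal1 and 1.77 and 2.09 in siTotal2. CXCL8 was at 2.63 and 2.35 CPM in siTotal2, between the controls and siTotal1.

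The 5 that were lower in siTotal1 were MSRB3-AS1 (-2.83), DNAH3 (-2.64), PSMB9 (-2.59), PAQR8 (-2.44) and DHRS2 (-2.36). PSMB9 was at 7.56 and 6.92 CPM in siTotal2, above both controls, where siTotal1 was below them. PAQR8, a membrane progesterone receptor, was at 1.94 and 2.21 CPM in siTotal1, 3.34 and 3.31 in siControl, 6.03 and 6.33 in mock and 11.3 in each siTotal2 library. DHRS2, a short-chain reductase, was at 34.1 and 35.4 CPM in siTotal1 and 184 and 174 in siTotal2, both above the controls at 14.1 to 19.8. Groups of 2 libraries are too small for the check of outlying samples.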

How the results depend on the processing

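With a floor of 1.5-fold, the counts of genes fell to 2099 against siControl, 1671 against mock, 1529 against the mean of the controls, 1638 between mock and siControl, 2105 between siTotal1 and siTotal2 and 701 held. The share of rises then went from 54.2% to 43.6% against mock, from 56.9% to 45.5% among held genes and from 53% to 33.2% against siTotal2. Treating mock and siControl as 1 control group left 3789. Leaving out 1 library at a time gave 6341 to 7091 against siControl, 5577 to 6849 against mock, 6002 to 7165 against the mean, 5578 to 6004 between the controls, 6379 to 7449 against siTotal2 and 3045 to 3817 held. DESeq2 held 3120 genes, 3090 of them shared, and its size factors in edgeR 3892, of which 3844 were shared. With only the groups compared in the fit, 3585 genes were held (3550 shared), 7267 differed from siControl and 6736 from mock. With no filter on low counts, 3697 were held (3622 shared).

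The data did not show that replicate numbers pair the libraries (correlation of replicate differences -0.05 for siControl with siTotal1, -0.25 for mock with siTotal1 and 0.22 for mock with siControl). With a replicate block, 3976 genes were held (3916 shared), with 7742 against siControl, 7277 against mock (7285 with the siTotal1 numbers exchanged, an alternative added after the data were seen), 7535, 7098 and 7794 in the other comparisons, and the block changed no call of a named gene.

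Within 150 bases before the start, the CCAAT share was 24.3% of genes held higher, 32.4% of those held lower and 27.0% of all. Shares held lower were 18.7% to 22.4% with the word AAGGGAA and 8.4% to 10.8% without it on leaving out 1 library, added after the data were seen. Of 2427 alternative values of single genes, 36 lost their call and 1 reversed: OARD1 against mock was -0.04 without the first mock library (adjusted p 0.76) and 0.17 without the second. Calls of DNAJB9, ATF6, DPP4 and CDC45 against siControl, and of CDC45, NDUFB8, IFIT1 and ANKRD37 against mock, were among those lost on leaving out a library. Among list counts of 1 or 2, leaving out 1 library moved the falls of p53 targets, lysosome, intestinal and RNA interference genes from 2 to 1, those of ERK genes from 1 to 0 or 2, inflammatory falls from 1 to 2 and G2/M rises from 1 to 3. The depth of 36068065 to 49746637 reads and 2 libraries a group limit what could be called among low genes.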
